A study of Mus musculus with 6 samples.

Results

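Fibroblast matrix genes were followed in RNA of tumour-associated macrophages (TAMs), the macrophages that settle in a tumour. The set held 10 genes chosen by symbol out of 24391 in the count table: Dcn, Lum, Bgn, Mgp, Sparc, Fn1, Col1a1, Col1a2, Col3a1 and Col6a1. All 10 passed the filter on low counts, which left 12710 genes, and all 10 are in the FPKM table of 23284 genes. Dcn and Mgp head the list because they were known to differ between the genotypes, and the other members are matrix genes set beside them. Dcn was 1 of 10 genes, 0.0787% of those tested, that edgeR called lower in CCL5-/- with the replicate number as a block, with no gene called higher. Genotype differences of the members are therefore given as values, with no test.

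The TAMs came from colorectal tumours of BALB/C mice. TAMs sorted as high in CD11b and low in F4/80 (F4/80low) gave 2 CCL5-/- libraries, from mice without the chemokine gene Ccl5, and 2 WT libraries. TAMs sorted as low in CD11b and high in F4/80 (F4/80hi) gave 1 library labelled CCL5-/- and 1 labelled WT, and each of their titles names the opposite genotype. The labels give no age, no tumour line and no word on pooling of mice, so the spread between libraries of a group may be technical.

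Fibroblasts build the interstitial matrix of a tissue. Their collagen chains assemble into fibrils and filaments, small leucine-rich proteoglycans such as decorin coat and space the fibrils, and fibronectin and SPARC bind collagen and shape how cells attach. Macrophages are known to make fibronectin themselves, whereas fibrillar collagen and decorin are textbook products of fibroblasts. In colorectal tumours, fibroblasts are an abundant neighbour of macrophages. In bulk RNA, fewer cells of a type and less RNA per cell cannot be told apart.

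Several features of the libraries touch every result. Total counts were 10494542 and 19073767 in CCL5-/- replicates 1 and 2, and 9280635 and 22411342 in WT replicates 1 and 2. The ribosomal RNA precursor Rn45s took 50% and 58.4% of counts in the CCL5-/- and WT replicates 1, against 1.38% and 0.844% in the replicates 2, so each genotype difference is also given within same-numbered pairs. The targeted gene Ccl5 was at 4.07 and 3.01 CPM (reads scaled to library size with TMM factors) in CCL5-/- replicates 1 and 2, against 43.8 and 131 CPM in WT. For F4/80hi, FPKM (reads per length and depth) of Ccl5 reached 145 under the label CCL5-/- and 15.7 under the label WT, against these labels. The F4/80hi ratio also predicted how reads split between F4/80low WT replicate 1 and CCL5-/- replicate 1 more closely than sampling allows (median chi-square 0.335 over 6677 genes, against 0.455 at the least for independent reads and 3.57 to 8.90 for the other 11 ordered pairs). The F4/80hi values are thus counted as the replicate 1 libraries with genotype labels crossed, and 4 libraries are counted in all. Since these libraries stand under both gates, the labels do not settle how replicate 1 was sorted. The name F4/80low is kept for them from the count table. All 12 macrophage markers listed, among them Csf1r and Cd68, had reads in every F4/80low library. Their summed levels were 6177 and 6008 CPM in CCL5-/- and 5159 and 9442 CPM in WT. Lyz2 alone gave 3159 and 3033 CPM of these sums in CCL5-/- and 2115 and 5351 CPM in WT. In replicate 2 against replicate 1, edgeR called 3 of the 12 higher and 3 lower, beside 13.1% and 16.5% of all tested genes.

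The matrix genes ranged from Lum, with as few as 5 reads in a library, to Fn1, with at least 15677. The 10 members together held 25453 and 64319 reads in CCL5-/- replicates 1 and 2, and 21903 and 55786 reads in WT. Their summed level was 2959 and 2362 CPM in CCL5-/- and 3763 and 1834 CPM in WT. Fn1 alone made up 70.7% of those reads in CCL5-/- replicate 1 and 43.4% in CCL5-/- replicate 2, against 71.6% and 39.4% in WT replicates 1 and 2. The plot of CPM by gene and library shows that the collagens lay close together across the 4 libraries, while Dcn, Lum and Mgp spread widely.

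**Figure D1:**
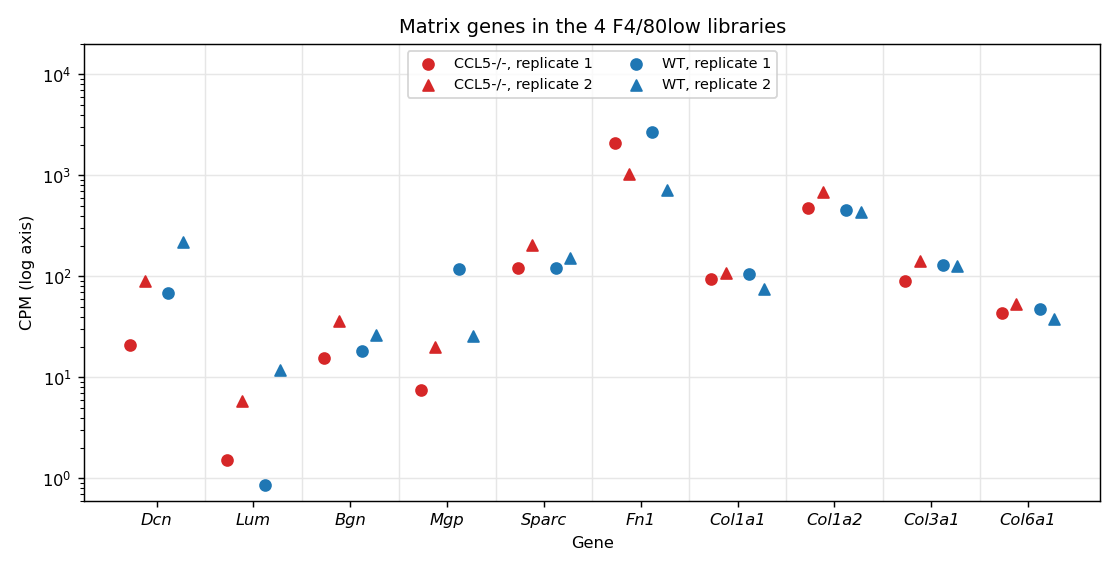
Level of each matrix gene (CPM, log axis) in the 4 F4/80low libraries, 1 point a library, CCL5-/- in red and WT in blue, circles for replicate 1 and triangles for replicate 2. The highest library was 16.03 times the lowest for Mgp, 13.7 times for Lum and 10.5 times for Dcn. For each of the 4 collagens it was at most 1.59 times the lowest.

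The first comparison set CCL5-/- against WT F4/80low TAMs and asked whether Dcn and Mgp moved with the collagens. Dcn and Mgp had lower levels in CCL5-/- in both replicate pairs, and none of the 4 collagens did. Across the 12710 tested genes edgeR called 0.0% between the genotypes at an adjusted p under 0.05. The targeted gene Ccl5 was thus not called either, so the absence of a call does not show that a gene was unchanged. Unadjusted, 41 genes had p under 0.05 (0.323%), DESeq2 called 1 gene and limma-voom called 0.

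Dcn encodes decorin, a small leucine-rich proteoglycan that binds collagen fibrils and transforming growth factor beta. The gene lies at chr10:97479609-97518143 (GRCm38, plus strand). It was at 21.2 and 89.5 CPM in CCL5-/- replicates 1 and 2, against 68.9 and 221 CPM in WT replicates 1 and 2. These rest on 182 and 2436 reads in CCL5-/- and 401 and 6726 reads in WT. WT was higher within each pair, but CCL5-/- replicate 2 stood above WT replicate 1, so the groups overlapped. Mean levels were 55.3 ± 48.3 CPM in CCL5-/- and 145 ± 108 CPM in WT (SD, n = 2 each). Dcn was 3.26-fold lower in CCL5-/- in the replicate 1 pair (log2 change -1.70, 95% exact interval -1.96 to -1.45) and 2.47-fold lower in the replicate 2 pair (log2 change -1.31, interval -1.37 to -1.24). These intervals, like those of the other members, cover counting error alone. Over all 4 libraries the log2 change was -1.39 (SE 0.87), and leaving out 1 library moved it between -2.78 (without CCL5-/- replicate 2) and -0.31 (without WT replicate 2).

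Mgp encodes matrix Gla protein, a vitamin K-dependent inhibitor of calcification made by smooth muscle, cartilage and fibroblasts. It was at 7.44 and 19.8 CPM in CCL5-/- replicates 1 and 2, against 119 and 25.8 CPM in WT replicates 1 and 2. The reads behind these were 64 and 540 in CCL5-/- and 694 and 785 in WT. Both CCL5-/- libraries lay below both WT libraries, and WT replicate 1 stood far above the other 3. Mean levels were 13.6 ± 8.76 CPM in CCL5-/- and 72.5 ± 66.1 CPM in WT (SD, n = 2 each). Mgp was lower in CCL5-/- by 16.03-fold in the replicate 1 pair (log2 change -4.00, interval -4.40 to -3.63) and by 1.30-fold in the replicate 2 pair (log2 change -0.38, interval -0.54 to -0.22). Of all tested genes, 8.24% had both CCL5-/- libraries below both WT libraries. Over 4 libraries the log2 change was -2.39 (SE 0.88), and it was -0.88 without WT replicate 1.

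Mgp is a short gene at chr6:136872435-136875823 (GRCm38, minus strand). The first 300 of its 315 coding bases in GENCODE M21 are given because this transcript had the largest log2 change of the set between the genotypes over 4 libraries and in the replicate 1 pair, though not in the replicate 2 pair or without WT replicate 1. Capitals mark the start codon.
Mgp: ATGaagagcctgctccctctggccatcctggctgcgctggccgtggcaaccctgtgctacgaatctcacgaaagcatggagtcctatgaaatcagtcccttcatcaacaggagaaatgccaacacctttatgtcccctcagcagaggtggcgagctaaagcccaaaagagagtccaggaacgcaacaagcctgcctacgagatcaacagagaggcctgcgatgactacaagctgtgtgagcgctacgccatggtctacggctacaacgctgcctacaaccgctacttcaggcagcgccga

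Decorin has close relatives, and the count of each could in principle take reads of another. Dcn and Bgn coding sequences were 63.7% identical over 1050 aligned bases, Dcn and Lum 54.7% over 974, and Lum and Bgn 54.8% over 987. The longest run shared letter for letter was 17 bases for Dcn and Bgn, 12 for Dcn and Lum and 14 for Lum and Bgn. The stretch around that Dcn and Bgn run is shown because it holds the longest exact match of the 2 coding sequences. It covers coding bases 741 to 890 of Dcn and 783 to 932 of Bgn, with the shared run in capitals.
Dcn: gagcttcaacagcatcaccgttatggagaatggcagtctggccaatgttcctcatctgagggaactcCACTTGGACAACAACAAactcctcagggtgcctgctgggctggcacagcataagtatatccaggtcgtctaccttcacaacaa
Bgn: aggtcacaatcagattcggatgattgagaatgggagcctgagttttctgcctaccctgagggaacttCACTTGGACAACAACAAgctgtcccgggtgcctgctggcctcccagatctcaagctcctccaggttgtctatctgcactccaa
The longest run that any 2 of the 10 coding sequences shared was 25 bases, between Col1a1 and Col1a2. The read length was not given in the sources used here.

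Of the other proteoglycans of the set, Bgn did not follow Dcn, and Lum did so in the replicate 2 pair alone. Lum encodes lumican, a corneal and stromal proteoglycan that limits the width of collagen fibrils, and lies beside Dcn on chromosome 10 (97565128 to 97572703, plus strand). It was at 1.51 and 5.88 CPM in CCL5-/- replicates 1 and 2, against 0.859 and 11.7 CPM in WT, from 13 and 160 reads in CCL5-/- and 5 and 357 reads in WT. In the replicate 1 pair the log2 change was 0.82 with an interval from -0.76 to 2.66, so its direction was not detectable at this depth. In the replicate 2 pair it was -0.998 (interval -1.28 to -0.72). The CCL5-/- and WT ranges of Lum overlapped.

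Bgn encodes biglycan, a relative of decorin that also signals through Toll-like receptors, and lies at chrX:73483602-73495933 (plus strand). It was at 15.6 and 35.8 CPM in CCL5-/- replicates 1 and 2, against 18.2 and 26.2 CPM in WT. The log2 change was -0.23 (interval -0.60 to 0.16) for replicate 1 and 0.45 (interval 0.31 to 0.59) for replicate 2, and the groups overlapped.

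None of the 4 collagens had lower levels in CCL5-/- in both pairs, and all 4 had higher levels there in the replicate 2 pair. Col1a1 and Col1a2 encode the chains of type I collagen, the main fibril of skin, bone and tumour stroma. Col1a1 was at 93.7 and 108 CPM in CCL5-/- replicates 1 and 2, against 105 and 74.8 CPM in WT. Its log2 changes in the pairs were -0.16 and 0.52. Col1a2 was at 474 and 677 CPM in CCL5-/-, against 458 and 437 CPM in WT. It was the only member with both CCL5-/- libraries above both WT libraries, a pattern that 8.36% of all tested genes shared. Its log2 changes in the pairs were 0.05 (interval -0.02 to 0.12) and 0.63 (interval 0.60 to 0.67), so the replicate 2 pair carries most of that difference.

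Col3a1 encodes type III collagen, which co-assembles with type I in soft tissue. It was at 90.2 and 144 CPM in CCL5-/- replicates 1 and 2, against 130 and 125 CPM in WT, with log2 changes of -0.53 and 0.20 in the pairs. Col6a1 encodes a chain of the beaded filament collagen VI. It was at 43.1 and 53.4 CPM in CCL5-/-, against 47.1 and 37.7 CPM in WT, with -0.13 and 0.50 in the pairs. Over 4 libraries the log2 changes of the 4 collagens ran between -0.13 and 0.36, and their groups overlapped except for Col1a2. Leaving out 1 library moved them between -0.06 and 0.44 for Col1a1, 0.08 and 0.65 for Col1a2, -0.50 and 0.22 for Col3a1 and 0.03 and 0.38 for Col6a1. Col1a1 lies at chr11:94936224-94953042 and Col1a2 at chr6:4504814-4541544. Col3a1 lies at chr1:45311538-45349706 and Col6a1 at chr10:76708792-76726168.

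Sparc and Fn1 also had higher levels in CCL5-/- in the replicate 2 pair and not in the replicate 1 pair. Sparc, which encodes a collagen-binding matricellular protein (chr11:55394500-55423183), was at 120 and 204 CPM in CCL5-/- replicates 1 and 2, against 122 and 152 CPM in WT. Its log2 changes in the pairs were -0.02 and 0.42. Fn1, which encodes the adhesive glycoprotein fibronectin (chr1:71585520-71653200), was at 2092 and 1026 CPM in CCL5-/-, against 2693 and 723 CPM in WT, with log2 changes of -0.36 and 0.51. For Fn1 the replicates of each genotype lay further apart than same-numbered CCL5-/- and WT libraries did.

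**Figure D2:**
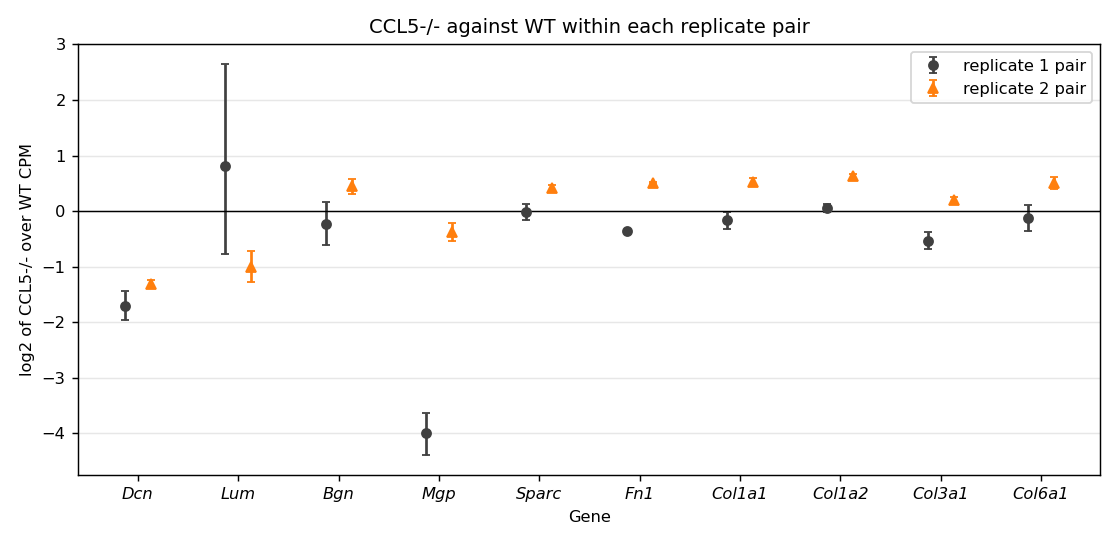
Log2 of CCL5-/- over WT CPM for each matrix gene, with the replicate 1 pair as circles and the replicate 2 pair as triangles; bars are 95% exact binomial intervals of the 2 counts, for counting error alone. Dcn and Mgp lie below 0 in both pairs, while Bgn, Sparc, Fn1 and the 4 collagens lie between -0.53 and 0.05 for replicate 1 and between 0.20 and 0.63 for replicate 2.

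Counted by direction, 2 of 10 members (Dcn and Mgp) were lower in CCL5-/- in both pairs, against 26.5% of all tested genes, and 1 of 10 (Col1a2) was higher in both, against 24.8%. A further 6 had lower values in CCL5-/- for replicate 1 but higher ones for replicate 2, against 22.8% of all genes, and Lum had the reverse, as did 25.8%. Of those 6 members, Fn1, Col1a1 and Col3a1 had replicate 1 intervals below 0, while those of Bgn, Sparc and Col6a1 covered 0. The median log2 change of the 10 members was 0.02 over 4 libraries, -0.19 for replicate 1 alone and 0.43 for replicate 2 alone, beside -0.01, 0.01 and -0.02 for all tested genes. Dcn was the only member at least 2-fold lower in CCL5-/- in both pairs, against 0.865% of all tested genes. Dcn and Mgp are in the set because they were known to differ between these genotypes, so their counts here only describe that choice. The authors' deposited table orders the members alike at its ends, with log2 fold changes of -0.75 for Mgp and -0.45 for Dcn, and with values from -0.16 for Lum to 0.23 for Col1a2 for the rest. How that table scales its changes was not given in the sources used here.

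Setting the reads of each gene against the collagen reads of the same library removes library size and scaling from the comparison. Per 100 reads of the 4 collagens, Dcn had 3.02 and 9.11 reads in CCL5-/- replicates 1 and 2, against 9.30 and 32.8 in WT replicates 1 and 2. Mgp had 1.06 and 2.02 in CCL5-/-, against 16.1 and 3.83 in WT. The lowest library was CCL5-/- replicate 1 for both genes, but the highest was WT replicate 2 for Dcn and WT replicate 1 for Mgp. Dcn and Mgp thus did not keep a fixed ratio to each other either.

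The ratio of Dcn to the 4 collagens varied 10.9-fold between the highest and the lowest library, and that of Mgp 15.2-fold. Between the collagens the ratios were far steadier. Col1a1 over Col6a1 was 2.17 and 2.02 in CCL5-/- replicates 1 and 2, against 2.23 and 1.99 in WT, a spread of 1.12-fold. The other 5 collagen ratios varied by 1.30-fold to 1.74-fold, the most for Col1a1 over Col3a1. Sparc kept close to the collagens as well, with 17.1 and 20.7 reads per 100 collagen reads in CCL5-/- and 16.5 and 22.5 in WT. Bgn had 2.22 and 3.65 in CCL5-/- and 2.46 and 3.89 in WT. Lum had 0.216 and 0.599 in CCL5-/- and 0.116 and 1.74 in WT. Fn1 split by replicate number, with 298 and 104 in CCL5-/- and 364 and 107 in WT.

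**Figure D3:**
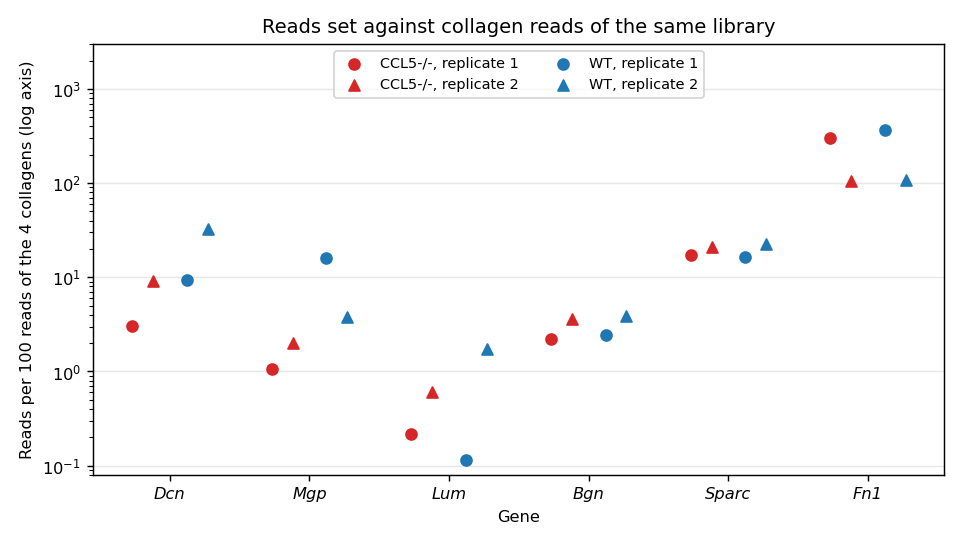
Reads of Dcn, Mgp, Lum, Bgn, Sparc and Fn1 per 100 reads of Col1a1, Col1a2, Col3a1 and Col6a1 together (log axis), 1 point for each F4/80low library, CCL5-/- in red and WT in blue. Sparc stays between 16.5 and 22.5, while Dcn runs between 3.02 and 32.8 and Mgp between 1.06 and 16.1.

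Of the summed reads of the 10 members, Dcn held 0.715% in CCL5-/- replicate 1 (exact binomial 95% interval 0.615 to 0.826) and 3.79% in CCL5-/- replicate 2 (3.64 to 3.94). In WT it held 1.83% in replicate 1 (1.66 to 2.02) and 12.1% in replicate 2 (11.8 to 12.3). Mgp held 0.251% and 0.840% in CCL5-/- replicates 1 and 2, against 3.17% and 1.41% in WT. These intervals count reads within single libraries and do not cover the spread between libraries.

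The genes whose pattern came nearest were sought by the root mean square distance of centred log2 CPM over the 4 F4/80low libraries, among 9889 genes with a mean log2 CPM of at least 2. Nearest to Dcn were Glod5 (distance 0.208), Dedd2 (0.355) and Col5a2 (0.386), a chain of the fibril-nucleating collagen V. Col5a2 was at 2.21 and 8.15 CPM in CCL5-/- replicates 1 and 2, against 6.18 and 11.7 CPM in WT. It is the collagen that came closest to Dcn, whereas Col3a1 lay at a distance of 1.03 and Col1a1 at 1.32. Nearest to Mgp were the acute-phase gene Saa3 (0.620), Wfdc17 (0.642) and Dmp1 (0.772), a mineralised-matrix gene. Saa3 was at 4.07 and 6.24 CPM in CCL5-/-, against 22.5 and 13.2 CPM in WT. Wfdc17 was at 32.7 and 53.6 CPM in CCL5-/-, against 175 and 112 CPM in WT. Dmp1 was at 6.86 and 10.9 CPM in CCL5-/-, against 42.8 and 5.49 CPM in WT, so it too peaked in WT replicate 1. Between Dcn and Mgp the distance was 1.43, and the member nearest to Dcn was Bgn (0.956). These distances describe 4 libraries and carry no test.

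Among the members the closest patterns were those of Col1a1 and Col6a1 (0.0705), Col1a2 and Col6a1 (0.138), Bgn and Sparc (0.176) and Col1a2 and Sparc (0.177). Genes outside the set, named after their values were seen, came nearer still, such as Lclat1 to Col1a1 (0.00575), Smpd1 to Col1a2 (0.0211) and Slc35e1 to Col6a1 (0.0114), so this closeness is not particular to the collagens. Promoters from RefSeq (GRCm38.p6, 250 bases before to 50 after the start site) were at hand for 5 members, Col1a2, Col3a1, Col6a1, Sparc and Bgn. Those of Col1a2 (chr6:4505368-4505667, plus strand) and Col6a1 (chr10:76725995-76726294, minus strand) are shown as the closest pair among the 5, with matches to the letters CCAAT and GGGCGG, on either strand, in capitals.
Col1a2: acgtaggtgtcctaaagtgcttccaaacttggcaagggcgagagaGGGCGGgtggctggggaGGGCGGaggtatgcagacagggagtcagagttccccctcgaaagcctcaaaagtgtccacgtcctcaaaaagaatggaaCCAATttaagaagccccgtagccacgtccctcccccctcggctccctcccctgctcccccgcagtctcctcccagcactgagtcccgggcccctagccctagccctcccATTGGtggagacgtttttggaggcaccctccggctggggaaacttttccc
Col6a1: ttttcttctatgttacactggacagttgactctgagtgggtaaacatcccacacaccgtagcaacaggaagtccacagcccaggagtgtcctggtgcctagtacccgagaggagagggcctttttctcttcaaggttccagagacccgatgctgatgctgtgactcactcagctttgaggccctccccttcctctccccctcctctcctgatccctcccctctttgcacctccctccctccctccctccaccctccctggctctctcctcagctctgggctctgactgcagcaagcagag
Col1a2 held CCAAT on each strand and GGGCGG at 2 places, with no overlap, and Col6a1 held neither, nor TATAAA. Of 32851 promoters of this length, 37.4% hold CCAAT, 35.7% GGGCGG and 13.6% TATAAA on either strand. Among the other 3 promoters at hand, Bgn held GGGCGG, Col3a1 held TATAAA and Sparc held none of these strings.

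Other matrix genes, from lists chosen with earlier results of these data known, are set beside the members. None was called by edgeR between the genotypes, but neither was the targeted gene Ccl5. The counts by direction stand beside 26.5% of all tested genes lower and 24.8% higher in CCL5-/- in both pairs. Interstitial and filament collagens outside the set had a median log2 change of 0.11 (10 tested), and 2 (Col5a2 and Col6a3) were lower and 4 higher in CCL5-/- in both pairs. Basement membrane genes had 0.07 (12 tested, 1 lower and 3 higher in both pairs). Collagen-modifying and crosslinking enzymes had 0.15 (18 tested, 1 lower and 7 higher in both). The 5 tested further members of the decorin family had 0.33, with 2 lower and 2 higher in both pairs. In that family Ogn, which encodes osteoglycin, was at 12.1 and 85.3 CPM in CCL5-/- replicates 1 and 2, against 10.99 and 41.1 CPM in WT. Ogn was thus higher in CCL5-/- in the replicate 2 pair, where Dcn was lower. The 2 relatives lower in both pairs, as Dcn was, were Aspn (log2 changes -0.21 and -0.35) and Prelp (-0.98 and -0.04).

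Matricellular and elastic fibre genes had a median of -0.22 (19 tested), with 8 lower and 1 higher in both pairs, against 26.5% and 24.8% of all tested genes. Receptors for collagen and fibronectin had 0.07 (12 tested, 1 lower and 4 higher in both). A list of growth factors, growth factor receptors and Toll-like receptors, with the vitamin K cycle enzymes that Mgp depends on, had -0.09. Of its 14 tested genes 8 were lower and 2 higher in both, against the same shares.

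Markers of the cells a sort could carry over are given beside these results. Fibroblast markers outside the set, 19 of 21 tested, summed to 780 and 1038 CPM in CCL5-/- replicates 1 and 2, against 742 and 955 CPM in WT. Their median log2 change was 0.04 over 4 libraries, -0.11 for replicate 1 alone and 0.12 for replicate 2 alone. In both pairs 5 were lower and 4 higher in CCL5-/-, near the 26.5% and 24.8% of all tested genes. Between the genotypes edgeR called none of them, but it did not call Ccl5 either. Cd34 carried the order of the sums in the replicate 1 pair. Without it, an alternative chosen after its values were seen, the sums were 575 and 792 CPM in CCL5-/- replicates 1 and 2, against 611 and 728 CPM in WT. Pdgfrb, a receptor of fibroblasts and pericytes, was chosen here after its values were seen. It was at 12.4 and 16.8 CPM in CCL5-/-, against 21.3 and 15.2 CPM in WT. Other fibroblast markers went both ways. In the replicate 1 pair the log2 change was 0.34 for Serpinf1, 1.18 for Islr, -0.11 for Twist2 and -0.36 for Igfbp7. Those of the replicate 2 pair were 0.47, -0.25, 0.50 and -0.07 in that order. Meox2, a mesenchymal transcription factor gene, was at 0 reads in CCL5-/- replicate 2 and in WT replicate 1.

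The sums of pericyte, neutrophil, endothelial and epithelial markers peaked in WT replicate 1, where Mgp peaked, but not every marker did. Their counts by direction stand beside 26.5% of all tested genes lower and 24.8% higher in CCL5-/- in both pairs. Pericyte and smooth muscle markers, of which 5 of 12 were tested, summed to 9.76 and 5.73 CPM in CCL5-/- replicates 1 and 2, against 28.2 and 7.23 CPM in WT. In both pairs 3 were lower and 1 higher, and the smooth muscle myosin gene Myh11 was at 0 reads in both WT libraries. Neutrophil markers, with 11 tested, summed to 776 and 347 CPM in CCL5-/-, against 3786 and 600 CPM in WT. In both pairs 10 were lower and 0 higher (median log2 change -2.22). Of the 14 listed, Elane and Mpo were at 0 reads in 1 CCL5-/- library each. Endothelial markers, with 10 of 14 tested, summed to 26.7 and 32.2 CPM in CCL5-/-, against 44.0 and 36.7 CPM in WT (median -0.62, 5 lower in both pairs and 0 higher), and Tek was at 0 reads in both replicates 1. Of these, Pecam1 and Cdh5 peaked in WT replicate 1, but Vwf and Eng peaked in WT replicate 2. Epithelial and tumour cell markers, with 7 of 14 tested, summed to 117 and 107 CPM in CCL5-/-, against 188 and 104 CPM in WT (median 0.13). In both pairs 2 were lower and 2 higher, and Cldn7 was at 0 reads in CCL5-/- replicate 2 and WT replicate 1. Krt20 alone gave 87.06 and 74.07 CPM of these sums in CCL5-/-, against 149.5 and 84.88 CPM in WT. Cdh1 also peaked in WT replicate 1, but Krt18 peaked in CCL5-/- replicate 2 and Krt8 in CCL5-/- replicate 1. The part of these cells in the Mgp and Dcn values was not tested.

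The second comparison set replicate 2 against replicate 1 of F4/80low, a contrast that did not choose the members. They are tested here in the fit without a genotype term. That fit counts the genotype difference within each replicate number as spread. Dcn and Mgp were chosen for that difference, so their not passing does not show that they were unchanged. What the number stands for was not given in the labels, and the ribosomal RNA share splits the libraries the same way. The replicate 1 values also stand under F4/80hi labels, so a difference of sort gate cannot be told apart from the replicate number. Of 10 members, 2 rose in replicate 2 in edgeR at an adjusted p under 0.05, where 13.1% of all tested genes did, and 1 fell, where 16.5% did. These shares, 2 and 1 of 10, are near the background. The median log2 change of the set was 0.27, beside 0.01 for all genes.

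Both replicate 2 libraries lay above both replicate 1 libraries for 4 members (Dcn, Lum, Bgn and Sparc), as for 34.2% of all genes, and below them for 1 (Fn1), as for 34.0%.

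Lum rose most, to 5.88 and 11.7 CPM in the CCL5-/- and WT replicates 2, against 1.51 and 0.859 CPM in the replicates 1 (log2 change 2.84, SE 0.48, edgeR adjusted p = 0.00118). Fn1 fell to 1026 and 723 CPM in the replicates 2, against 2092 and 2693 CPM in the replicates 1 (log2 change -1.45, SE 0.27, edgeR adjusted p = 0.00204). Both calls held whichever library was left out, with edgeR adjusted p-values of at most 0.0128 for Lum and 0.0235 for Fn1. Bgn rose to 35.8 and 26.2 CPM in the replicates 2, against 15.6 and 18.2 CPM in the replicates 1 (log2 change 0.88, SE 0.24, edgeR adjusted p = 0.0154). The Bgn call was lost without CCL5-/- replicate 1 (edgeR adjusted p = 0.115) and without CCL5-/- replicate 2 (0.0922).

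Dcn was higher in both replicates 2, at 89.5 and 221 CPM in CCL5-/- and WT, against 21.2 and 68.9 CPM in the replicates 1. The log2 change was 1.80 (SE 0.88), which did not pass in edgeR (adjusted p = 0.24). With the genotype as a term it was 1.88 (SE 0.23), as the genotype difference then no longer counted as spread. Replicate 2 was 4.23-fold above replicate 1 in CCL5-/- and 3.21-fold above it in WT. The fit with that term has the design behind the call that put Dcn in the set. Its p-value is therefore no independent test and is not given. Mgp went opposite ways in the genotypes, at 19.8 CPM in CCL5-/- replicate 2 against 7.44 CPM in CCL5-/- replicate 1, and at 25.8 CPM in WT replicate 2 against 119 CPM in WT replicate 1. Its log2 change of -1.46 (SE 1.64) did not pass in edgeR (adjusted p = 0.595). It was -2.35 without CCL5-/- replicate 1 (edgeR adjusted p = 9.52e-05) and 1.64 without WT replicate 1 (edgeR adjusted p = 0.00464), so its direction turned without WT replicate 1. In each of these fits 1 library stands alone for replicate 1, and the p-value rests on the spread of the replicates 2.

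Sparc had a log2 change of 0.55 (SE 0.22), which did not pass in edgeR (adjusted p = 0.0778). The collagens did not pass either, with edgeR log2 changes from -0.12 for Col1a1 to 0.29 for Col3a1 and adjusted p-values from 0.367 to 0.967. Within CCL5-/- the replicate 2 over replicate 1 log2 difference of the collagens ran from 0.20 to 0.67, and within WT from -0.49 to -0.05.

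**Figure D4:**
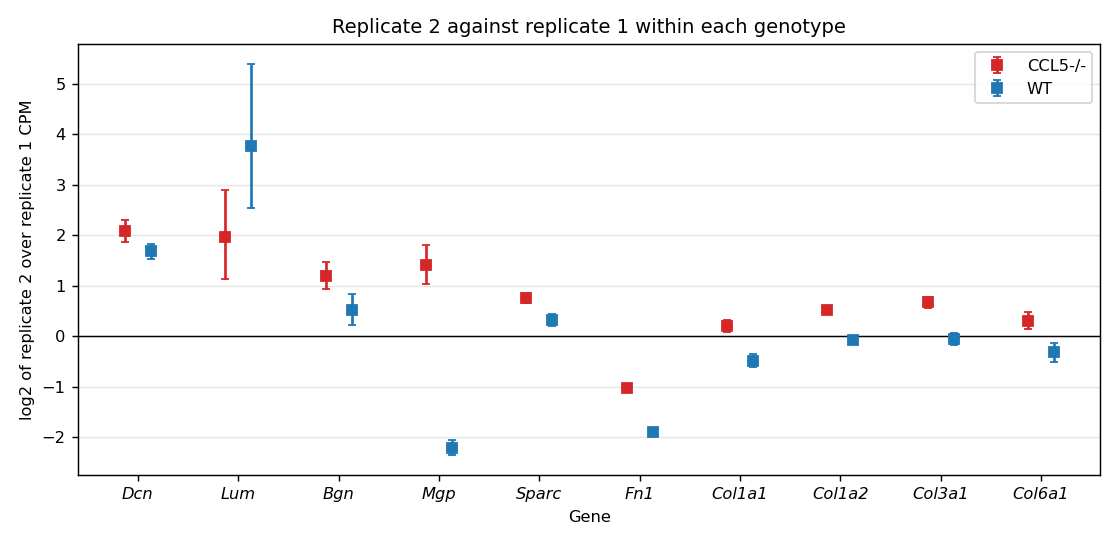
Log2 of replicate 2 over replicate 1 CPM for each matrix gene within CCL5-/- (red) and within WT (blue); bars are 95% exact binomial intervals for counting error alone. Dcn lies at 2.08 and 1.68, Lum at 1.96 and 3.77 and Fn1 at -1.03 and -1.90 in CCL5-/- and WT, while Mgp lies at 1.41 in CCL5-/- and -2.21 in WT.

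Further matrix lists were counted in the same comparison, where 13.1% of all tested genes rose and 16.5% fell. Of the 5 tested decorin relatives 3 rose in edgeR and 0 fell. Ogn rose by a log2 change of 2.45 (edgeR adjusted p = 0.00116), the asporin gene Aspn by 2.17 (0.000278) and the osteoadherin gene Omd by 1.94 (0.00323). Of 18 enzymes and chaperones of collagen synthesis 5 rose and 0 fell, and the other 13 did not pass. Serpinh1, the collagen-specific chaperone, was at 580 and 498 CPM in the CCL5-/- and WT replicates 2, against 211 and 172 CPM in the replicates 1 (log2 change 1.49, edgeR adjusted p = 0.000696). P4ha2, a prolyl hydroxylase, had 0.99 (0.0181), Pcolce, which enhances procollagen cleavage, had 0.74 (0.0272), and Crtap, a partner of prolyl 3-hydroxylation, had 0.73 (0.0436). Of 10 collagens outside the set Col5a2 alone was called, with a log2 change of 1.30 (edgeR adjusted p = 0.0469). Of 19 fibroblast markers 8 rose and 1 fell. Igfbp7 rose with 1.79 (edgeR adjusted p = 0.00344) and the transcription factor gene Twist2 with 1.12 (0.00381), and Pdgfra, a receptor of fibroblasts, fell with -1.04 (0.0176).

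The FPKM table allows levels to be set side by side between genes, since it divides by transcript length. It describes the same 2 libraries as the replicate 1 pair, under crossed labels, and has no replicate. In the library labelled CCL5-/- the order was Fn1 (345 FPKM), Mgp (305), Col1a2 (121), Sparc (71.1), Dcn (68.2), Col3a1 (34.3), Col1a1 (24.8), Bgn (11.95), Col6a1 (11.6) and Lum (0.747). In the library labelled WT it was Fn1 (262 FPKM), Col1a2 (132), Sparc (67.5), Col1a1 (23.3), Col3a1 (23.1), Mgp (20.5), Dcn (18.4), Col6a1 (12.5), Bgn (9.71) and Lum (1.23). Mgp was thus second only to Fn1 in one library and sixth in the other, while Col1a2, Sparc, Col1a1 and Col6a1 differed by at most 0.12 in log2(FPKM + 1). The authors' bounds were 117 to 492 FPKM for Mgp in the library labelled CCL5-/- and 4.99 to 36.1 FPKM in that labelled WT. For Dcn they were 26.3 to 110 and 6.84 to 29.9 FPKM, which overlap. Neighbours in either order had overlapping bounds, except that Lum lay below the bounds of the member next above it.

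On the scale of log2(FPKM + 1), the library labelled CCL5-/- differed from that labelled WT by 3.83 for Mgp and 1.84 for Dcn, and the other members lay between -0.35 for Lum and 0.55 for Col3a1. Of 11670 genes with at least 1 FPKM in either library, 2.35% were at least 2-fold higher in the library labelled CCL5-/-, among them Dcn and Mgp, and 1.58% were at least 2-fold lower, with no member among them. For Dcn and Mgp the sign is opposite to that of the F4/80low replicate 1 pair, the same libraries under the other genotype label.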

How the data were processed

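Per the labels' protocols, Trizol RNA went into Illumina TruSeq RNA LT V2 libraries. The deposited count table holds whole-number counts per gene for 4 F4/80low libraries. A deposited comparison table holds a signal (counts scaled by size factors), and the authors' own p-value, test score and log2 fold change. The F4/80hi table holds the authors' FPKM with bounds. The submitters' processing notes name Cufflinks 2.2.1 and TopHat2 2.1.1 beside STAR, HTSeq and DESeq2, and several builds. Which tool and build made which table, and whether strand was used, was not given in the sources used here. Of 20911 symbols shared with GENCODE M21, 99.06% had an FPKM locus that overlaps the GRCm38 gene, and GRCm38 positions are printed.

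In R 4.3.3, edgeR 4.0.16 was run on the counts (filterByExpr, TMM, robust quasi-likelihood F test, two-sided, no covariate), with Benjamini-Hochberg adjustment over 12710 genes at 0.05. The standard error of a log2 change was its size over the square root of F. Log2 CPM used a prior count of 2. DESeq2 1.42.0, limma-voom (limma 3.58.1), other scaling and filters, a term for the other factor, and leaving out each library were tried. The edgeR fits were tested on simulated data. Exact binomial intervals (95%, scipy 1.17.1) cover counting error alone. FPKM depth is unknown, and FPKM changes used a pseudocount of 1, which understates changes of low genes. Members and lists were chosen with earlier results of these data known. All 10 members are named whatever their values, and of each further list up to 4 genes, those called with the smallest p or otherwise the most abundant. Some further genes were named outside this rule after their values were seen, such as Pdgfra, Pdgfrb, Cd34, Col6a3 and the markers at 0 reads.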

Additional observations from a re-analysis of the deposited data

Results flagged for a closer look

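For 3 members the F4/80hi values have, by label, the opposite sign to both F4/80low pairs. On the log2(FPKM + 1) scale the F4/80hi library labelled CCL5-/- differed from that labelled WT by 1.84 for Dcn, 3.83 for Mgp and -0.12 for Col1a2. In F4/80low the log2 changes of CCL5-/- over WT in the replicate 1 and 2 pairs were -1.70 and -1.31 for Dcn, -4.00 and -0.38 for Mgp and 0.05 and 0.63 for Col1a2. The F4/80hi values match the F4/80low replicate 1 libraries with the genotype labels crossed (median chi-square 0.335 over 6677 genes, against 0.455 at the least for independent reads). The opposite signs are therefore those of the same 2 libraries under the other label, so these values hold no contrast between the sort gates, and none was tested. The F4/80hi titles and the level of Ccl5 also put the other genotype on each F4/80hi library.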

How the results depend on the processing

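With edgeR 0 genes were called between the genotypes. DESeq2 called 1 (Ccl5), and edgeR with the replicate block called 10, all lower in CCL5-/- and Dcn among them. Leaving out 1 library gave 0 to 4, and 4 without WT replicate 2 (Camp, Ccl5, Ngp and Wfdc21). The replicate block moved the log2 change of Dcn to -1.49 (SE 0.23) and that of Mgp to -2.04 (SE 1.65). The correlation of same-numbered deviations over 12710 genes was 0.728, and with 2 pairs the labels do not settle whether the numbers pair the libraries. Leaving out 1 library moved the genotype log2 change of Dcn between -2.78 and -0.31, of Mgp between -3.28 and -0.88 and of Lum between -2.10 and 2.12, and unbalances the replicate numbers. For replicate 2 against 1 it gave 797 to 1409 genes higher and 1270 to 1827 lower, against 1669 and 2098 with all libraries, and a median over the members of 0.049 to 0.60. The replicate log2 change crossed 0 when 1 library was left out for Mgp (-2.35 to 1.64), Col1a1 (-0.41 to 0.12), Col1a2 (-0.093 to 0.54) and Col6a1 (-0.26 to 0.25). Col6a1 had -0.0037 in limma-voom and -0.0035 with the genotype term, against 0.015. Sparc passed without the filter on low counts (log2 change 0.64, edgeR adjusted p = 0.0276) and without WT replicate 2 (0.75, 0.0221). Dcn passed in limma-voom (1.94, adjusted p = 0.0268) and in edgeR without WT replicate 1 (2.89, adjusted p = 0.00768). A replicate number left with 1 library is assumed to vary like the other. With a pseudocount of 0.1 FPKM, 503 genes were at least 2-fold higher and 351 lower in the library labelled CCL5-/-, against 274 and 184. The causes were not tested. The shares of Dcn and Mgp reads moved by less than the spread between pairs under both other denominators. Lum, with 5 reads in WT replicate 1, is limited by depth.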

Other observations

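Some matrix genes outside the set were far lower in replicate 2. Vcan, which encodes the large proteoglycan versican, was at 15.4 and 21.3 CPM in the CCL5-/- and WT replicates 2, against 206 and 234 CPM in the replicates 1 (log2 change -3.58, SE 0.25). Thbs1, which encodes thrombospondin 1, was at 182 and 209 CPM in the replicates 2, against 1234 and 1498 CPM in the replicates 1 (log2 change -2.80, SE 0.25). Of 19 matricellular and elastic fibre genes 5 fell and 3 rose in replicate 2 in edgeR, where 16.5% of all tested genes fell and 13.1% rose. Tgfbi fell by 1.18 on the log2 scale (edgeR adjusted p = 0.00304), and Cyr61 rose by 0.99 (edgeR adjusted p = 0.00484).

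Of 12 receptors for collagen and fibronectin 3 fell and 1 rose, where 16.5% of all tested genes fell and 13.1% rose. Itga5, which encodes the alpha chain of the classical fibronectin receptor, rose by 0.96 (edgeR adjusted p = 0.0065) while its ligand gene Fn1 fell. Itga1, a collagen receptor chain, fell by 2.20 (edgeR adjusted p = 0.000859). Among 14 tested growth factor, receptor and vitamin K cycle genes 5 fell and 1 rose, beside the same shares. Tlr4 was at -1.52 (edgeR adjusted p = 0.000313), Met at -1.55 (0.000343), Tgfbr3 at -1.20 (0.00116) and Igf1r at -1.10 (0.00217). Of 12 basement membrane genes 2 fell, near the 16.5% of all tested genes, and they were Lamc1 (-0.82, edgeR adjusted p = 0.0142) and the perlecan gene Hspg2 (-1.15, 0.0144). Itgam, which encodes the CD11b used in the sort, was at 144 and 180 CPM in the CCL5-/- and WT replicates 2, against 580 and 598 CPM in the replicates 1. The F4/80 gene Adgre1 had 35.3 and 51.8 CPM in the replicates 2, against 53.7 and 35.6 CPM in the replicates 1. Whether the replicates differ in sort gate was not tested.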
